A study of Homo sapiens with 12 samples.

Results

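Interferon-stimulated genes (ISGs) were followed as a set of 49 genes, chosen by symbol from a list of established ISGs, among the 23273 genes tabulated for each of 2 melanoma cell lines. A gene was tested in a line where its mean reached 1 FPKM (fragments per kilobase of transcript, relative to all mapped fragments) in any of that line's groups. This held for 36 of the 49 genes in COLO858 and for 44 in MMACSF, and for 47 in at least 1 line. OASL and RSAD2 passed in neither line. The 13 genes left out in COLO858 reached at most 1.21 FPKM in any library, and the 5 left out in MMACSF at most 1.13.

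COLO858 and MMACSF are established BRAF-mutant human melanoma lines, each cultured as a bulk population. Cells of each line received the vehicle DMSO or 0.2 μM vemurafenib, a RAF inhibitor that blocks MAP kinase signaling downstream of mutant BRAF, and drug-treated cells were harvested after 24 or 48 h. No interferon was added to any group. Every combination of line and condition had 2 replicate libraries, which gave 12 libraries of polyadenylated RNA. Plates were seeded in replicate, and as nothing more is stated about the replicates, p-values measure only the spread between these libraries. The labels do not say at which time the DMSO plates were harvested, so the 24 and 48 h groups of a line were both compared with the same 2 DMSO libraries. The question was how the drug changed expression in each line and whether the lines responded differently.

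Type I and type III interferons bind cell surface receptors that activate the JAK kinases, which phosphorylate STAT proteins. STAT2 and IRF9 are components of the complex ISGF3, which binds the interferon-stimulated response element (ISRE) in ISG promoters, whereas interferon-gamma signaling acts through the gamma-activated site (GAS). The products sense viral RNA, block viral entry, translation and replication, conjugate the ubiquitin-like protein ISG15 to other proteins, or feed back on the pathway itself, and many ISGs keep a basal level of expression in tumor cells in the absence of added interferon.

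The labelled cell type was checked on 7 melanocyte lineage markers. In COLO858 their summed FPKM was 699 to 715 under DMSO and 3910 to 4142 under drug, and in MMACSF it was 11160 to 11370 and 15580 to 17550. Within this list, 3 of 6 tested genes (PMEL, DCT, and S100B) were called higher in COLO858 at 24 h, at an adjusted p under 0.01 in limma. Over all genes, 4.11% were. MITF, SOX10, and TYR were not called (adjusted p = 0.117, 0.142, and 0.0644). DCT alone was at 2788 and 3041 FPKM in the 24 h libraries of COLO858. MLANA and TYR stayed at or below 1.21 FPKM in COLO858. Markers of leukocytes, epithelium, endothelium, and fibroblasts summed to at most 14.5, 1.63, 0.621, and 3.04 FPKM in COLO858. In MMACSF they summed to at most 84.95, 39.3, 0.733, and 6.88 FPKM. The leukocyte sums were nearly all CD68, which melanoma cells also express, while CD3E was listed at 0 in every library and PTPRC did not exceed 0.242 FPKM. In bulk RNA, fewer cells of a kind and less RNA per cell cannot be told apart. Over all genes, the FPKM of a COLO858 library summed to between 670310 and 1013038, and that of an MMACSF library to between 726083 and 856083. A single gene, MIR4461, made up 14.1% to 43.4% and 14.7% to 33.0% of these sums, and its share was higher in replicate 2 than in replicate 1 of every group. The part of these movements in the results below was not tested.

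The promoters of the ISGs were read from RefSeq (build GRCh38.p14) to show the sequence elements through which the family is known to be controlled. Each window ran from 250 bases before to 50 bases after a transcription start, and 40 of the 49 genes matched. The ISRE was searched as GAAANNGAAA, or TTTCNNTTTC on the other strand, and was present in 27 of the 40 genes (67.5%) and in 4.38% of all 27305 genes with a promoter. The GAS was searched as TTCNNNGAA, which reads the same on both strands, and was present in 12 of the 40 (30.0%) and in 9.38% of all genes. Windows are printed below for members whose values are described in detail, on the strand of the gene, with the searched motif in capitals.
IFIT1: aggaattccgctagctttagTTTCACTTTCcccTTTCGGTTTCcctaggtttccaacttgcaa
RTP4: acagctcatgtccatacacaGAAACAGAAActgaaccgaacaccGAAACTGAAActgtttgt
GBP1: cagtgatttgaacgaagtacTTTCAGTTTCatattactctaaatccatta
IRF9: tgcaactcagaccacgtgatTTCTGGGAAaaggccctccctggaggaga
ISG15: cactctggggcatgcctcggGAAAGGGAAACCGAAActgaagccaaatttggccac
HERC5: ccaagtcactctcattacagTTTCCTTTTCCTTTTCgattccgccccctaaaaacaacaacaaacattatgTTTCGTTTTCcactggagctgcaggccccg
The capitals mark an ISRE in every window except that of IRF9, where they mark a GAS. The IFIT1 window (chr10:89392487-89392549, + strand) and the RTP4 window (chr3:187368323-187368384, + strand) each hold 2 separate ISREs. The GBP1 window (chr1:89065306-89065355, − strand) holds 1. The ISG15 window (chr1:1013364-1013419, + strand) holds 2 that overlap, and the HERC5 window (chr4:88456974-88457074, + strand) holds 3, of which 2 overlap. The IRF9 window (chr14:24161182-24161230, + strand) holds a GAS, and no match to the ISRE lay within the whole IRF9 promoter window. Neither motif was found in the windows of STAT2, CMPK2, UBE2L6, and HERC6. PARP9 and DTX3L, which lie head to head on opposite strands, share 1 ISRE at chr3:122564332-122564341.

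Under DMSO the ISGs were generally better expressed in MMACSF than in COLO858. A mean of 1 FPKM or more was reached in both lines by 28 members, in MMACSF but not COLO858 by 14, in COLO858 but not MMACSF by 1 (CMPK2), and in neither line by 6. The MMACSF mean was the larger for 46 of the 49, the exceptions being CMPK2, ISG15, and GBP1, and for 25 of the 49 every MMACSF library, treated or not, lay above every COLO858 library. Of the 13595 genes at 1 FPKM or more in any group, the MMACSF mean was the larger for 44.5%, and every MMACSF library lay above every COLO858 library for 14.0%. The tables of the 2 lines were normalized separately and the scaling is not stated, so these levels are set side by side with no test. The widest separations were among the antiviral effectors. The ranges that follow cover every library of a line, treated or not. OAS1, which makes the oligoadenylates that activate RNase L, was at 0 to 0.0847 FPKM in COLO858 and 10.0 to 21.9 in MMACSF. OAS2, a related synthetase, was at 0.0241 to 0.0965 FPKM and 13.0 to 29.7. MX1, a GTPase that blocks influenza and other viruses, was at 0.478 to 1.21 FPKM in COLO858 and 22.5 to 40.9 in MMACSF. BST2 (tetherin), which holds budding virions on the cell surface, was at 0.713 to 2.42 FPKM in COLO858 and 217 to 328 in MMACSF. In COLO858 the 3 most abundant members, IFITM3, LGALS3BP, and IFI16, held 74.8% to 82.9% of the summed FPKM of all 49. In MMACSF the leading 3 were LGALS3BP, IFITM3, and BST2, with 53.1% to 62.8%.

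**Figure D1:**
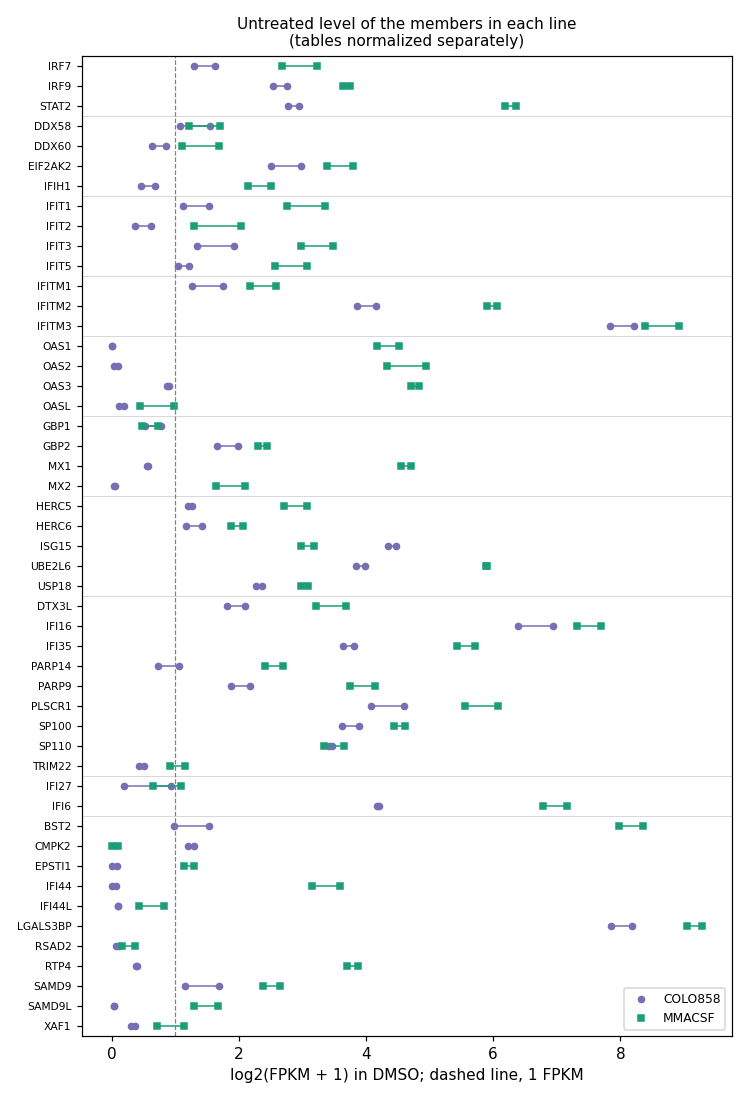
Untreated level of the 49 ISGs on the log2(FPKM + 1) scale, 1 row per gene, grouped by role. Circles are the 2 DMSO libraries of COLO858 and squares those of MMACSF, each pair joined by a line, and the dashed line marks 1 FPKM. OAS1, OAS2, OAS3, MX1, MX2, and IFI44 lie left of the dashed line in COLO858 and right of it in MMACSF. BST2 lies near the dashed line in COLO858 and far to the right in MMACSF, whereas CMPK2 and ISG15 lie further right in COLO858.

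With 2 libraries per group and replicates not treated as paired, few ISGs passed the threshold under vemurafenib. Those called higher in both lines were components of ISGF3. A fit with the replicate number as a block called 20 members higher and 3 lower in COLO858 at 24 h. In MMACSF at 24 h it called 7 and 2. That fit also called 45.0% and 26.1% of all genes in these 2 comparisons. All log2 changes below are differences of log2(FPKM + 1), which understate the change of genes with low values, with a standard error (SE) from limma and a p adjusted over all genes tested, called under 0.01. In COLO858 at 24 h, 3 of 36 tested members rose (IRF9, STAT2, and RTP4), 8.33% of the members beside 4.11% of the 12696 genes tested, and none fell beside 5.71%. At an unadjusted p under 0.05, 19 of the 36 were higher and 5 lower, where 20.8% and 19.5% of all genes were. The 36 included 7 that reached 1 FPKM under drug and not under DMSO. At 48 h, 3 rose (IRF9, STAT2, and IFIT1), 8.33% beside 4.74%, and 1 fell (CMPK2), 2.78% beside 4.73%. At the unadjusted p, 16 were higher and 4 lower at 48 h, where 18.8% and 20.5% of all genes were. In MMACSF at 24 h, 2 of 44 tested members rose (IRF9 and STAT2), 4.55% beside 2.22% of 12599 genes, and none fell beside 3.6%. At the unadjusted p, 17 of the 44 were higher and 3 lower, where 19.5% and 16.5% of all genes were. At 48 h, 1 rose (STAT2), 2.27% beside 3.42%, and 1 fell (GBP2), 2.27% beside 5.41%. The counts of calls in MMACSF at 48 h were thus no higher than the background. At the unadjusted p, 10 were higher and 5 lower there, where 20.3% and 18.7% of all genes were.

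The median log2 change of the tested members was 0.56 at 24 h and 0.49 at 48 h in COLO858, with medians of 0.06 and −0.01 over all genes tested. In MMACSF it was 0.40 and 0.21, with 0.07 and 0.06 over all genes, and the 48 h value turned to −0.15 with a minimum of 10 FPKM. The change was positive for 29 and 28 of 36 members in COLO858, beside 53.8% and 48.7% of all genes, and for 34 and 27 of 44 in MMACSF, beside 55.8% and 54.6%. These medians describe the members that passed the expression filter, of which 7 in COLO858 and 2 in MMACSF reached 1 FPKM under drug and not under DMSO. Each call rested on 2 libraries per group. Leaving out either library of a compared group ended every call made within a line, so that the count of rises and falls was then 0. The calls of IRF9 and STAT2 in COLO858 at 24 h held when a 48 h library was left out, and each of the others was lost without any library of its line. Over all alternatives tried, the direction of these calls did not change and their largest adjusted p was 0.0187 to 0.0604.

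**Figure D2:**
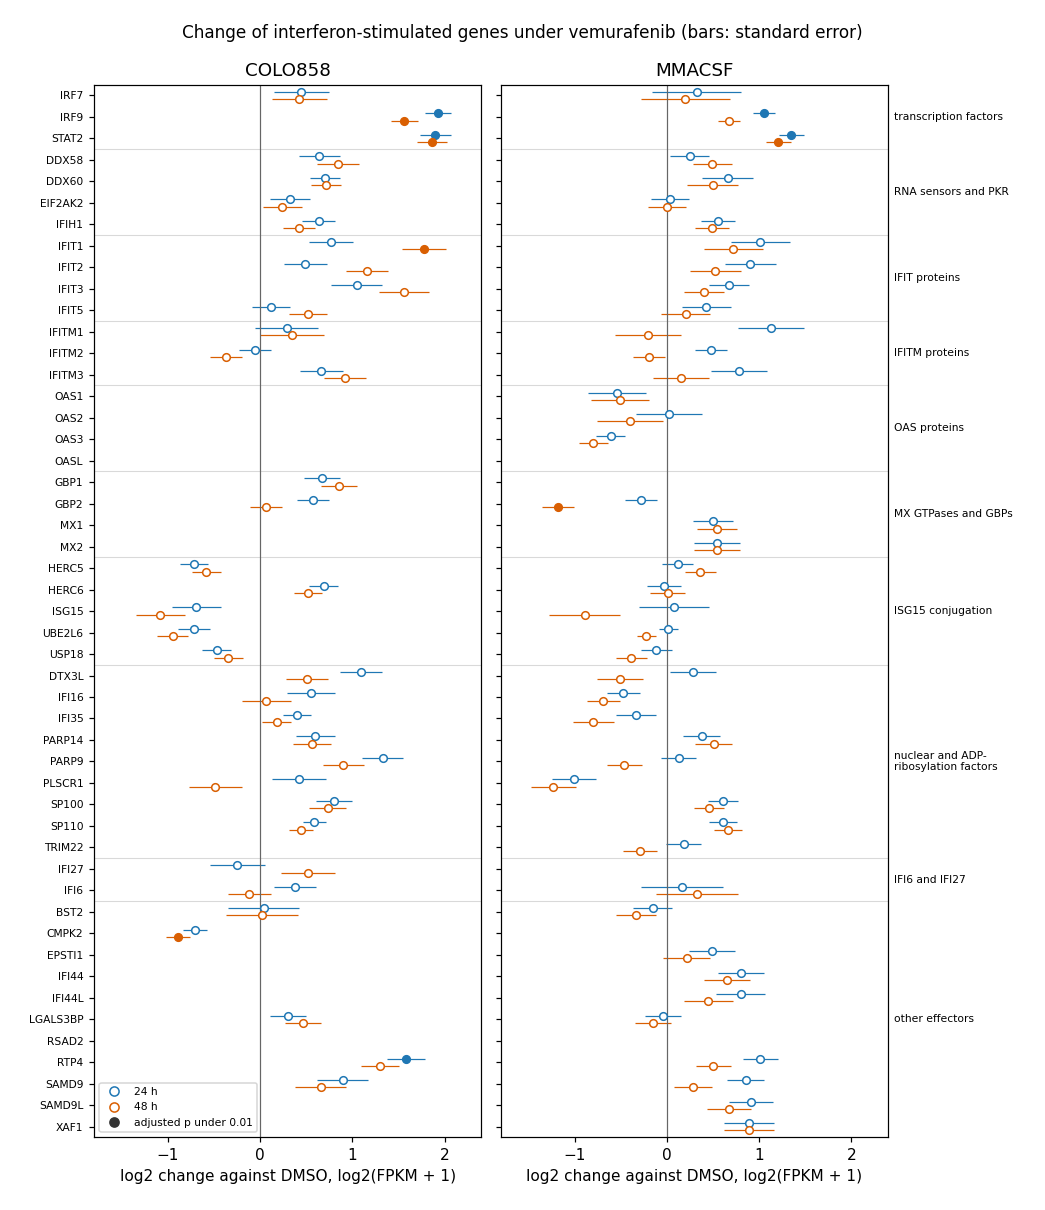
Log2 change of each tested ISG against DMSO in COLO858 and MMACSF, on the log2(FPKM + 1) scale, grouped by role, at 24 h and 48 h. Points are estimates, bars are 1 standard error, filled points passed an adjusted p under 0.01, and genes without a point were not tested in that line. The filled points are IRF9 and STAT2 in both lines, RTP4, IFIT1, and CMPK2 in COLO858, and GBP2 in MMACSF.

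IRF9, the DNA-binding subunit of ISGF3 (chr14:24630443-24637252, + strand, GRCh37), rose in both lines. In COLO858 it was at 5.77 and 4.79 FPKM in the DMSO libraries, 22.6 and 23.1 at 24 h, and 17.3 and 17.7 at 48 h. Every treated library lay far above both controls, and the 24 h values lay above those at 48 h. The log2 change was 1.93 (SE 0.14, adjusted p = 0.00145) at 24 h and 1.56 (SE 0.14, adjusted p = 0.00266) at 48 h. In MMACSF it was at 11.4 and 12.4 FPKM under DMSO, 25.9 and 25.5 at 24 h, and 20.0 and 19.2 at 48 h. This gave a log2 change of 1.05 (SE 0.12, adjusted p = 0.00555) at 24 h and 0.67 (SE 0.12, adjusted p = 0.0142) at 48 h, the latter not past the threshold although the groups did not overlap.

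STAT2, the transactivating subunit of ISGF3 (chr12:56735381-56753987, − strand, GRCh37), rose at both times in both lines. In COLO858 it was at 5.83 and 6.68 FPKM under DMSO, 24.4 and 27.8 at 24 h, and 23.1 and 27.8 at 48 h. In MMACSF it was at 71.9 and 80.8 FPKM under DMSO, 185 and 207 at 24 h, and 164 and 192 at 48 h. In each line the treated libraries were well separated from the controls, and the 2 times overlapped each other. Its log2 change was 1.90 (SE 0.16, adjusted p = 0.00221) and 1.86 (SE 0.16, adjusted p = 0.00241) in COLO858, and 1.35 (SE 0.14, adjusted p = 0.00441) and 1.21 (SE 0.14, adjusted p = 0.00462) in MMACSF. IRF7, the factor that amplifies interferon transcription, varied widely between replicates, from 1.45 to 3.64 FPKM in COLO858 and from 4.94 to 14.9 in MMACSF, and was not called. Its 24 h libraries in MMACSF, at 14.9 and 4.94 FPKM, lay on either side of the controls.

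RTP4, a transporter chaperone and ISG effector (chr3:187086173-187089864, + strand, GRCh37), rose in COLO858 at 24 h. It was at 0.323 and 0.298 FPKM under DMSO, 2.47 and 3.44 at 24 h, and 1.81 and 2.70 at 48 h. The gene thus passed the expression filter only through the treated groups. The log2 change was 1.58 (SE 0.21, adjusted p = 0.00635) at 24 h and 1.30 (SE 0.21, adjusted p = 0.0113) at 48 h. In MMACSF, RTP4 was at 11.99 and 13.6 FPKM under DMSO, 26.2 and 27.3 at 24 h, and 15.6 and 22.0 at 48 h. The MMACSF changes of 1.01 (SE 0.19, adjusted p = 0.0207) and 0.50 (SE 0.19, adjusted p = 0.112) were not past the threshold.

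The IFIT proteins bind foreign RNA ends and restrain translation. IFIT1 (chr10:91152303-91166244, + strand, GRCh37, within an interval that LIPA also spans on the other strand) rose in COLO858 at 48 h. It was at 1.19 and 1.89 FPKM under DMSO, 3.09 and 3.49 at 24 h, and 6.24 and 9.24 at 48 h. The 3 groups did not overlap and were ordered by time. The log2 change was 0.77 (SE 0.24, adjusted p = 0.0696) at 24 h and 1.78 (SE 0.24, adjusted p = 0.00728) at 48 h. In MMACSF, IFIT1 was at 5.74 and 9.22 FPKM under DMSO, 19.8 and 12.5 at 24 h, and 10.6 and 15.1 at 48 h. Both MMACSF times lay above the controls, but the changes of 1.01 (SE 0.32, adjusted p = 0.0826) and 0.72 (SE 0.32, adjusted p = 0.162) were not past the threshold. The other 3 family members were not called in any comparison. In COLO858 at 48 h the log2 change was 1.56 for IFIT3 (adjusted p = 0.0143), 1.16 for IFIT2 (adjusted p = 0.0217), and 0.52 for IFIT5 (adjusted p = 0.12). The 4 estimates were positive in both lines at both times, but IFIT2 had passed the filter in COLO858 only through the treated groups. Over all genes, 53.8% and 48.7% were positive in COLO858 at 24 and 48 h, and 55.8% and 54.6% in MMACSF. The 50-base reads can be divided between similar paralogs, and the same holds for the IFITM, OAS, GBP, and MX families.

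**Figure D3:**
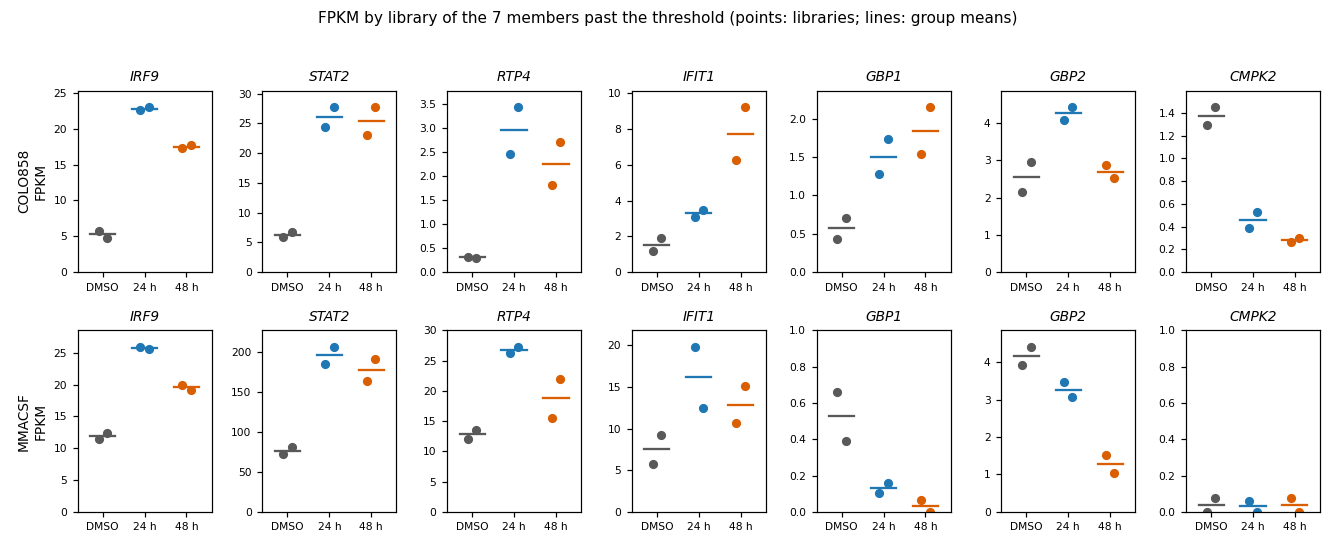
FPKM in each library of the 7 ISGs past the threshold in any comparison, COLO858 above and MMACSF below, each panel with its own linear axis from 0. Points are libraries and short lines are group means of 2 libraries under DMSO and after 24 and 48 h of vemurafenib. IRF9 and STAT2 are raised under drug in both lines, GBP1 is higher under drug in COLO858 and lower in MMACSF, and CMPK2 falls in COLO858 and stays at or below 0.0773 FPKM in MMACSF.

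The cytosolic RNA sensors and PKR, which detect viral RNA and stop translation, gave 0 calls in limma among 4 tested genes in either line at either time. At an unadjusted p under 0.05, which 20.8% of all genes in COLO858 met with a higher value at 24 h and 18.8% at 48 h, COLO858 had 3 higher at 24 h and 2 at 48 h. MMACSF had 1 at each time, where 19.5% and 20.3% of all genes were higher. The 4 estimates were positive in COLO858, but DDX60 and IFIH1 had passed the filter there only through the treated groups. In MMACSF the 4 estimates were also positive at both times, with medians of 0.40 and 0.49. Over all genes, 53.8% and 48.7% were positive in COLO858 at 24 and 48 h, and 55.8% and 54.6% in MMACSF. The range in COLO858 was 1.12 to 3.90 FPKM for DDX58 (RIG-I), 0.374 to 1.40 for IFIH1 (MDA5), 0.552 to 1.91 for the helicase DDX60, and 4.67 to 8.01 for EIF2AK2 (PKR). At 48 h in COLO858, DDX60 had a log2 change of 0.71 (adjusted p = 0.0315) and DDX58 of 0.84 (adjusted p = 0.0474). In MMACSF the same genes ranged from 1.16 FPKM for DDX60 to 12.9 for EIF2AK2, and PKR was almost level, with log2 changes of 0.03 and 0.00.

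The IFITM proteins block fusion of viruses with endosomal membranes, and IFITM3 was among the most abundant members of both lines. In COLO858 IFITM3 was at 296 and 228 FPKM under DMSO, 484 and 351 at 24 h, and 550 and 442 at 48 h. Every treated COLO858 library exceeded both controls, with log2 changes of 0.67 (SE 0.23, adjusted p = 0.0899) and 0.92 (SE 0.23, adjusted p = 0.039) that were not past the threshold. In MMACSF it was at 485 and 333 FPKM under DMSO, 909 and 530 at 24 h, and 469 and 428 at 48 h, where the 48 h libraries lay between the controls. IFITM1 ranged from 1.40 to 3.74 FPKM in COLO858 and 2.92 to 14.8 in MMACSF. IFITM2 ranged from 10.8 to 16.9 FPKM and 50.5 to 99.8. None of the 3 was called, and at an unadjusted p under 0.05 1 was higher at each time in COLO858 and 3 at 24 h in MMACSF. Over all genes, 20.8% and 18.8% were higher at that p in COLO858 at 24 and 48 h, and 19.5% in MMACSF at 24 h.

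No OAS gene was tested in COLO858. In MMACSF, OAS3 was at 25.1 and 27.5 FPKM under DMSO, 18.0 and 15.8 at 24 h, and 13.1 and 16.5 at 48 h. All 4 treated libraries lay under the controls, with log2 changes of −0.61 (SE 0.16, adjusted p = 0.0517) and −0.80 (SE 0.16, adjusted p = 0.0215), neither past the threshold. OAS1 was at 17.1 and 21.9 FPKM under DMSO and at 10.0 to 16.7 in the treated libraries (adjusted p = 0.278 at 24 h and 0.289 at 48 h). OAS2 overlapped between treated and control libraries, and OASL reached at most 0.985 FPKM in any library. The dynamin-like GTPases MX1 and MX2 had log2 changes of 0.50 and 0.54 at 24 h in MMACSF, with adjusted p = 0.167 and 0.188.

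Among the guanylate-binding proteins, interferon-inducible GTPases that act on vacuoles of intracellular pathogens, GBP2 (chr1:89571815-89616139, − strand, GRCh37, overlapping GBP7 on the same strand) fell in MMACSF at 48 h. It was at 3.94 and 4.42 FPKM under DMSO, 3.47 and 3.07 at 24 h, and 1.53 and 1.05 at 48 h. The 3 groups did not overlap. The log2 change was −0.28 (SE 0.17, adjusted p = 0.303) at 24 h and −1.18 (SE 0.17, adjusted p = 0.00883) at 48 h. In COLO858, GBP2 was at 2.16 and 2.95 FPKM under DMSO, 4.09 and 4.43 at 24 h, and 2.87 and 2.52 at 48 h, with the 48 h values inside the range of the controls. GBP1 (chr1:89517565-89531043, − strand, GRCh37) was at 0.435 and 0.705 FPKM under DMSO in COLO858, 1.28 and 1.73 at 24 h, and 1.53 and 2.15 at 48 h. The treated COLO858 libraries lay above the controls, but the log2 changes of 0.67 (SE 0.19, adjusted p = 0.057) and 0.85 (SE 0.19, adjusted p = 0.0305) were not past the threshold. In MMACSF, GBP1 was at 0.660 and 0.392 FPKM under DMSO, 0.106 and 0.161 at 24 h, and 0.0649 and 0 at 48 h, all under the minimum for a test within that line.

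The ISG15 system gave 0 calls among 5 tested genes in each line, and 4 of its 5 estimates were negative in COLO858 at both times. At an unadjusted p under 0.05, 4 were lower and 1 higher at 24 h in COLO858, 3 lower and 1 higher at 48 h, and none met that p in MMACSF. Over all genes in COLO858, 19.5% were lower and 20.8% higher at 24 h, and 20.5% and 18.8% at 48 h. In MMACSF 16.5% were lower and 19.5% higher at 24 h, and 18.7% and 20.3% at 48 h. ISG15, the ubiquitin-like modifier, was at 21.2 and 19.4 FPKM under DMSO in COLO858, 16.0 and 9.23 at 24 h, and 8.35 and 9.81 at 48 h. UBE2L6, its conjugating enzyme, was at 14.9 and 13.3 FPKM, then 7.74 and 8.59, then 6.02 and 7.68. HERC5, its main ligase, was at 1.31 and 1.41 FPKM, then 0.388 and 0.485, then 0.426 and 0.740, and passed the filter in COLO858 only through its DMSO group. In each of these genes all 4 treated libraries lay under both controls, as they did for 5 of the 36 tested members and for 22.8% of all genes. At 48 h the log2 change was −1.08 for ISG15 (adjusted p = 0.0387), −0.95 for UBE2L6 (adjusted p = 0.0156), and −0.58 for HERC5 (adjusted p = 0.0474). USP18, which removes ISG15 and restrains the interferon receptor, ranged from 3.81 to 4.18 FPKM under DMSO and 2.27 to 2.98 under drug. HERC6, a relative of HERC5, went the other way, with 1.26 and 1.68 FPKM under DMSO and 2.44 to 3.13 under drug (adjusted p = 0.0292 at 24 h). In MMACSF the 24 h libraries of ISG15 were at 12.3 and 4.96 FPKM, on either side of the controls at 8.04 and 6.86, and its 48 h libraries were at 3.24 and 3.86 FPKM, both under the controls (log2 change −0.89, adjusted p = 0.148). USP18 in MMACSF was at 6.85 and 7.55 FPKM under DMSO and 5.53 and 5.02 at 48 h. The 48 h response of ISG15 was not shown to differ between the lines (difference −0.19, SE 0.51, adjusted p = 0.873). UBE2L6 was at 58.0 and 59.0 FPKM under DMSO in MMACSF and at 49.6 to 60.8 under drug.

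**Figure D4:**
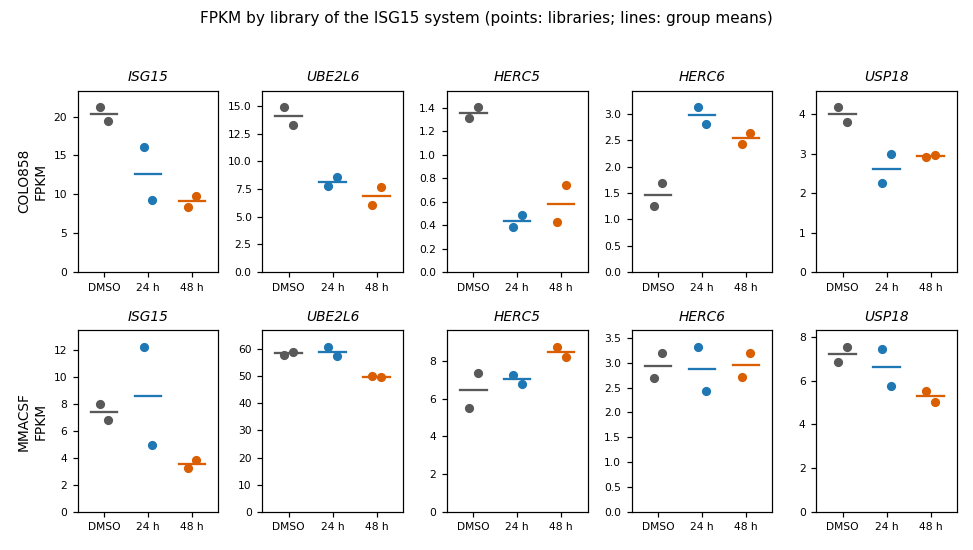
FPKM in each library of 5 genes of the ISG15 system, COLO858 above and MMACSF below, each panel with its own linear axis from 0. Points are libraries and short lines are group means of 2 libraries. In COLO858 every treated library of ISG15, UBE2L6, HERC5, and USP18 lies under both DMSO libraries and HERC6 lies above them, while none of the 5 passed an adjusted p under 0.01 in either line.

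The nuclear and ADP-ribosylation factors gave 0 calls among 8 tested genes in COLO858 and 9 in MMACSF. At an unadjusted p under 0.05, 6 were higher at 24 h and 4 at 48 h in COLO858, while in MMACSF 2 were higher and 2 lower at 24 h, and 3 and 3 at 48 h. Over all genes, 20.8% and 18.8% were higher at that p in COLO858 at 24 and 48 h. In MMACSF 19.5% were higher and 16.5% lower at 24 h, and 20.3% and 18.7% at 48 h. All 8 estimates were positive in COLO858 at 24 h, with a median of 0.59, and 6 of 9 were negative in MMACSF at 48 h, with a median of −0.46. Over all genes, 53.8% and 54.6% were positive in these 2 comparisons. Of the 8, PARP14 had passed the filter in COLO858 only through the treated groups. PARP9, an ADP-ribosyltransferase that enhances ISG transcription, was at 2.69 and 3.52 FPKM under DMSO in COLO858, 8.08 and 10.6 at 24 h, and 5.72 and 7.67 at 48 h. The groups did not overlap, and the log2 change was 1.33 (SE 0.22, adjusted p = 0.0129) at 24 h. DTX3L, the ubiquitin ligase that partners PARP9, was at 2.52 and 3.29 FPKM, then 6.03 and 8.77, then 4.09 and 4.98 (adjusted p = 0.0232 at 24 h). The 2 genes overlap at their starts on opposite strands (PARP9 at chr3:122246771-122283424 and DTX3L at chr3:122283185-122294050, GRCh37), and as the strand setting of the counting is not stated, reads from the shared stretch cannot be assigned. IFI16, a nuclear DNA sensor, was at 82.8 and 121 FPKM under DMSO in COLO858, 130 and 167 at 24 h, and 90.4 and 122 at 48 h. In MMACSF IFI16 was at 159 and 207 FPKM under DMSO, 123 and 139 at 24 h, and 102 and 123 at 48 h. Its log2 changes in MMACSF were −0.47 (SE 0.18, adjusted p = 0.121) and −0.69 (SE 0.18, adjusted p = 0.0427), not past the threshold. PLSCR1, a phospholipid scramblase, was at 46.3 and 66.2 FPKM under DMSO in MMACSF and at 19.2 to 28.2 in the treated libraries (adjusted p = 0.0199 at 48 h). The nuclear body proteins SP100 and SP110 had positive changes of 0.44 to 0.80 in both lines at both times, with adjusted p = 0.027 to 0.0964.

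CMPK2, a mitochondrial nucleotide kinase (chr2:6980701-7006766, − strand, GRCh37, overlapping RSAD2 on the other strand), fell in COLO858 at 48 h. It was at 1.30 and 1.45 FPKM under DMSO, 0.384 and 0.529 at 24 h, and 0.265 and 0.296 at 48 h. The log2 change was −0.71 (SE 0.13, adjusted p = 0.0186) at 24 h and −0.89 (SE 0.13, adjusted p = 0.00978) at 48 h. CMPK2 passed the filter only through its DMSO group. RSAD2 (viperin) reached at most 0.288 FPKM in any library. LGALS3BP, a secreted glycoprotein that binds galectins, was at 290 and 231 FPKM under DMSO in COLO858, 365 and 279 at 24 h, and 388 and 330 at 48 h. In MMACSF LGALS3BP was at 622 and 530 FPKM under DMSO, 667 and 468 at 24 h, and 522 and 514 at 48 h. The LGALS3BP changes, from −0.15 to 0.47, did not pass the threshold in either line (adjusted p = 0.147 to 0.911). BST2 in MMACSF was at 328 and 252 FPKM under DMSO, 308 and 217 at 24 h, and 232 and 225 at 48 h, with adjusted p = 0.648 and 0.305.

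Of the remaining effectors, IFI6, a mitochondrial ISG product, ranged from 14.8 to 28.2 FPKM in COLO858 and from 93.3 to 209 in MMACSF without a call, and IFI27 stayed at or below 1.49 FPKM. SAMD9, a growth and antiviral regulator, had log2 changes at 24 h of 0.90 (adjusted p = 0.0697) in COLO858 and 0.85 (adjusted p = 0.0391) in MMACSF. In MMACSF at 24 h its neighbor SAMD9L, the apoptosis factor XAF1, IFI44, and IFI44L had log2 changes of 0.91, 0.89, 0.80, and 0.80, with adjusted p = 0.0502 to 0.0911. These 4 genes were under 1 FPKM in every COLO858 library. XAF1 and IFI44L had passed the filter in MMACSF only through the treated groups. IFI35, PARP14, TRIM22, and EPSTI1 were not called within either line either, and their values under DMSO lay between 0 FPKM for EPSTI1 in COLO858 and 51.5 for IFI35 in MMACSF.

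Between 24 and 48 h of drug, no ISG was called in either line. Over all genes, 1.17% were called higher and 0.213% lower in COLO858, and 0.111% in each direction in MMACSF. At an unadjusted p under 0.05, 3 of 36 members were higher and 4 lower at 48 h in COLO858, where 10.2% and 9.83% of all genes were. In MMACSF, 0 of 44 members were higher and 10 lower at that p, where 2.64% and 4.33% of all genes were. The median change of the members from 24 to 48 h was −0.08 in COLO858 and −0.22 in MMACSF, beside −0.07 and −0.02 over all genes.

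Whether the lines responded differently was tested as an interaction over the 12 libraries, for 47 members among 13595 genes. At 24 h the response was more positive in COLO858 for 1 member (IRF9), 2.13% beside 1.78% of all genes, and less positive for none beside 1.93%. At an unadjusted p under 0.05, 9 members were more positive and 4 less positive, where 9.67% and 11.5% of all genes were. At 48 h it was more positive for 3 (IRF9, GBP1, and GBP2), 6.38% beside 4.19%, and less positive for 1 (CMPK2), 2.13% beside 3.3%. At the unadjusted p, 12 were more positive and 4 less positive at 48 h, where 13.1% and 14.4% of all genes were. The log2 response of IRF9 was larger in COLO858 by 0.88 (SE 0.15, adjusted p = 0.00992) at 24 h and by 0.89 (SE 0.15, adjusted p = 0.00568) at 48 h. The difference at 24 h was past the threshold by little and was lost on leaving out any of 12 libraries, the difference at 48 h on leaving out any of 11. For GBP2 at 48 h the difference was 1.25 (SE 0.22, adjusted p = 0.00711), with a fall in MMACSF and a change of 0.06 in COLO858. For GBP1 at 48 h it was 1.41 (SE 0.23, adjusted p = 0.00455), but GBP1 passed the filter only through the treated groups of COLO858 and averaged under 1 FPKM in every other group. For CMPK2 at 48 h it was −0.89 (SE 0.15, adjusted p = 0.00497), where MMACSF held at most 0.0773 FPKM, so that the COLO858 change is set against a gene near 0. The calls at 48 h were lost on leaving out any of 11 libraries for GBP2, 8 for CMPK2, and 6 for GBP1, with a largest adjusted p over all alternatives of 0.0324, 0.0911, and 0.0208. The response of STAT2 was not shown to differ, with differences of 0.55 (SE 0.20, adjusted p = 0.149) at 24 h and 0.66 (SE 0.20, adjusted p = 0.0639) at 48 h.

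Other genes of the pathway were examined as lists. None of the interferon genes themselves was detected at 1 FPKM. IFNB1, which encodes interferon-beta, and 8 others of the 10 interferon genes listed were at 0 in all 12 libraries, and IFNL3 (tabulated as IL28B) was at 0.189 FPKM in a single DMSO library of COLO858. Of 9 receptor and JAK kinase genes, 7 were tested in COLO858 and 8 in MMACSF, and 0 were called in any comparison. Over all genes, up to 4.74% were called higher and up to 5.71% lower in a comparison. At an unadjusted p under 0.05, at most 3 were higher, in MMACSF at 24 h, where 19.5% of all genes were. At most 2 were lower, in MMACSF between 24 and 48 h, where 4.33% of all genes were. IFNAR1, a chain of the type I interferon receptor, ranged from 7.04 to 12.2 FPKM in COLO858 and from 7.73 to 15.9 in MMACSF. JAK1, the kinase shared by all interferon receptors, ranged from 11.2 to 20.6 FPKM and from 22.7 to 35.0. JAK2, singled out after its values were seen, was at 0 to 0.0344 FPKM in COLO858 and 4.72 to 7.24 in MMACSF. It is the kinase that the interferon-gamma receptor uses together with JAK1.

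Among 6 negative regulators, none was called within a line. At an unadjusted p under 0.05, the most was 1 higher and 2 lower, in COLO858 at 48 h, where 18.8% and 20.5% of all genes were. SOCS3, which inhibits JAK kinases, was at 1.74 and 1.11 FPKM under DMSO in COLO858, 5.77 and 4.14 at 24 h, and 3.71 and 2.66 at 48 h. In MMACSF it was at 7.15 and 5.46 FPKM, then 16.7 and 13.5, then 2.37 and 1.60. Its response at 48 h, higher than DMSO in COLO858 and lower in MMACSF, was 2.08 higher in COLO858 (SE 0.33, adjusted p = 0.00419). A more positive response was called for 4.19% of all genes. Among 14 genes of nucleic acid sensing, of which 10 were tested in COLO858 and 12 in MMACSF, 1 was called. This was in COLO858 at 48 h, where 4.74% of all genes were called higher. SAMHD1, which degrades deoxynucleotides and restricts retroviruses, was at 9.49 and 11.1 FPKM under DMSO in COLO858, 15.6 and 18.5 at 24 h, and 27.6 and 30.7 at 48 h. The 3 groups did not overlap, and it rose at 48 h by 1.42 (SE 0.16, adjusted p = 0.00479). In MMACSF, SAMHD1 was at 4.17 to 6.24 FPKM throughout and was not called.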

How the data were processed

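Polyadenylated RNA of 12 libraries was sequenced by the authors as single reads of 50 bases from stranded libraries with ERCC spike-in. The authors aligned them with TopHat (default parameters, hg19), ran Cuffdiff, and deposited FPKM per gene, 1 table per line. Program versions, annotation, strand setting, and library scaling are not given in the sources used here. Whole reads could not be recovered, so depth, and the precision it sets, is unknown. All 12 columns were used and 0 left out.

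Each line was fitted with limma 3.58.1 in R 4.3.3 on log2(FPKM + 1), with 3 groups of 2 libraries and a mean-variance trend, for genes that averaged 1 FPKM or more in any group. Tests were two-sided, with Benjamini-Hochberg adjustment across all genes tested and a threshold of 0.01. Differences between lines were an interaction over 12 libraries. The fit was run on simulated data with independent noise and no effect shared by replicate numbers. It was therefore not tested under such a shared effect.

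Per-library values are given for members called in any comparison and for the 3 most abundant of each line, others by range, and further values were chosen after they were seen. Pathway genes are named where called, with IFNB1, IFNAR1, and JAK1, and 1 list fixed with the others is not reported here. Members and lists were chosen with earlier results of these data known. Alternatives were a constant of 0.1, a minimum of 0 or 10 FPKM, median-ratio rescaling, no trend, a replicate block, and each library left out. Gene positions are from GENCODE on GRCh37 and promoters from RefSeq on GRCh38.p14.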

Additional observations from a re-analysis of the deposited data

Results flagged for a closer look

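The responses of 4 members were called different between the lines by the test of the interaction itself. It was run in limma over 12 libraries, with p adjusted over all genes. For IRF9 the log2 response was larger in COLO858 by 0.88 (SE 0.15, adjusted p = 0.00992) at 24 h and by 0.89 (SE 0.15, adjusted p = 0.00568) at 48 h, and the treated libraries lay above the controls in 4 of 4 cases in each line. For GBP1 at 48 h it was larger by 1.41 (SE 0.23, adjusted p = 0.00455), with both treated libraries above the controls in COLO858 and both under them in MMACSF, although GBP1 passed the filter only through the treated groups of COLO858. For GBP2 at 48 h it was larger by 1.25 (SE 0.22, adjusted p = 0.00711), with both treated libraries under the controls in MMACSF and between them in COLO858. For CMPK2 at 48 h the difference was −0.89 (SE 0.15, adjusted p = 0.00497), with both treated libraries under the controls in COLO858 and 0 to 0.0773 FPKM in MMACSF. CMPK2 passed the filter only through the DMSO group of COLO858. Each of these calls was lost on leaving out some of the single libraries, as given above. Groups of 2 libraries were too small to search for outlying libraries.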

How the results depend on the processing

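No called member changed direction under any alternative, while the median over members in MMACSF at 48 h turned from 0.21 to −0.15 with a minimum of 10 FPKM and that of the interaction at 24 h from 0.04 to −0.06 without MMACSF 24 h replicate 2. Of 215 recomputations of the called members, 97 kept the call and 118 lost it, most of them with a library left out, which leaves a lone library that is assumed to vary like the other groups. With each library left out in turn, the count of members that rose was 0 to 2 in COLO858 at 24 h and 0 in COLO858 at 48 h and in MMACSF at either time, and the count that fell was 0 throughout. In the interaction it was 0 at 24 h, and at 48 h 0 to 2 more positive and 0 to 1 less positive, with a median over members of 0.155 (without MMACSF 48 h replicate 1) to 0.496 (without MMACSF DMSO replicate 1) beside 0.35 with all libraries. The replicate numbers of a line were tested as a block although nothing states what they share. Deviations from the group means correlated between libraries of the same number at r = 0.196 to 0.211 in COLO858 and 0.0628 to 0.113 in MMACSF, and the difference between replicates had the same sign in all 3 groups for 75% of all genes in COLO858 and 67.4% in MMACSF. With only 2 numbers, and no label that says what they share, the libraries were not treated as paired. Any effect shared by a replicate number therefore stays in the spread of the reported fit. With the replicate block, 20 members rose and 3 fell in COLO858 at 24 h, 17 and 4 at 48 h, and 1 and 2 between 24 and 48 h. In MMACSF the block gave 7 and 2 at 24 h and 3 and 4 at 48 h. In the interaction it gave 8 more and 2 less positive at 24 h, and 10 and 2 at 48 h. The block also raised the calls over all genes, to 45.0%, 43.7%, and 18.0% of genes in the 3 COLO858 comparisons, 26.1% and 30.1% in MMACSF at 24 and 48 h, and 17.6% and 25.3% in the interaction. In the fit with the block, IFIT3, RTP4, SAMD9, and SP100 joined IRF9 and STAT2 among the members that rose at 24 h in both lines.

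With no minimum, the calls of IFIT1 in COLO858 at 48 h (adjusted p = 0.0127) and of GBP2 in the interaction at 48 h (adjusted p = 0.0115) were lost, and IFI44 was called in COLO858 at 48 h. In that setting 2 members fell in COLO858 at 24 h (CMPK2 and OAS3), 0 fell in MMACSF at 48 h, 1 was less positive in the interaction at 24 h, and the median in COLO858 at 24 h was 0.40. With a constant of 0.1 FPKM, 0 fell in COLO858 at 48 h, 0 were more positive in the interaction at 24 h, and 5 were more and 0 less positive at 48 h. The medians were then 0.70 in COLO858 at 48 h, and 0.25 and 0.59 in the interaction at 24 and 48 h. With a minimum of 10 FPKM, 0 fell in COLO858 at 48 h, 2 rose and 0 fell in MMACSF at 48 h, and 1 was more and 0 less positive in the interaction at 48 h. The medians were then 0.18 in COLO858 at 48 h, −0.15 in MMACSF at 48 h, and 0.20 and 0.55 in the interaction. With median-ratio rescaling, 5 rose in COLO858 at 48 h, and the interaction gave 0 more positive at 24 h and 5 at 48 h. Without the trend, the interaction gave 0 more positive at 24 h. Fewer genes are tested under the higher minimum, and the cause of the other shifts was not tested.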
